A study of Mus musculus with 16 samples.

Results

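The acute-phase proteins are plasma and tissue proteins made largely by the liver whose levels change in infection, injury and inflammation. The 10 followed here, chosen by gene symbol, were all found among the 52143 genes of the liver count table, and all 10 passed the filter on low counts that kept 11324 genes. They are the serum amyloids *Saa1*, *Saa2*, *Saa3* and *Saa4*, lipocalin 2 (*Lcn2*), the orosomucoids *Orm1* and *Orm2*, haptoglobin (*Hp*), the fibrinogen beta chain (*Fgb*) and serum amyloid P (*Apcs*). RNA was taken from livers of male C57BL6/J mice that were 6 weeks old when bought and then ate chow or, in the HFD groups, a high-fat diet (60% of energy from fat) for 12 weeks. Every 2 weeks the mice received saline (0.9% NaCl) or siRNA at 3 mg/kg targeting *Fgfr4*, the hepatocyte receptor for the gut hormone FGF15. The 4 groups of 4 libraries were Chow and HFD, both with saline, and Chow/FGFR4 KD and HFD/FGFR4 KD, both with the siRNA (KD, knockdown). The siRNA carried N-acetylgalactosamine, which is taken up by hepatocytes. No group received a control siRNA, so an effect of the siRNA itself and the loss of FGFR4 cannot be told apart.

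Interleukin 6, acting through STAT3, and interleukin 1 and tumour necrosis factor, acting through NF-kB and C/EBP factors, are the classic signals that raise acute-phase genes in hepatocytes. Genes that answer to both arms, such as *Saa1* and *Saa2*, are known for very large changes, whereas haptoglobin and fibrinogen are abundant at rest and change less. Negative acute-phase proteins such as albumin and transthyretin fall during the response.

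Total counts ranged from 3445949 to 5976449 per library, and levels are given as CPM, counts divided by a library size that was corrected for composition. *Fgfr4* was between 2.43 and 6.17 CPM in the 8 KD libraries and between 21.8 and 36.3 CPM in the 8 saline libraries, so the labels held. The 8 hepatocyte markers examined, *Alb* among them, summed to between 57922 and 77198 CPM. The library Chow/FGFR4 KD 4 stood apart for the acute-phase genes, and HFD/FGFR4 KD 1 was nearer to chow than the rest of its group for some of them. Chow 3 stood apart in another way: 43 genes were at least 4-fold above all other libraries there (17 in Chow/FGFR4 KD 4), among them the intestinal genes *Reg3b* (36.3 CPM, at most 0.710 elsewhere), *Fabp6* (24.7, at most 1.89), *Sis* (8.52, at most 0.473) and *Muc2* (7.81, at most 0.473). The summed level of 4 bile duct markers was also highest there, at 27 CPM. This sum is not separate from the 43 genes, since *Krt19* (8.925 CPM, at most 2.213 elsewhere) belongs to both. For each intestinal gene named, the next highest library was Chow 4, of the same group. No fit left out Chow 3 and Chow 4 together. Chow 3 was the lowest Chow library for *Saa1*, *Saa2*, *Orm1*, *Orm2*, *Hp* and *Fgb*, and the part of other tissue in its levels was not tested. Each comparison is given for all 16 libraries and again without Chow/FGFR4 KD 4. These are bulk livers, in which fewer cells of a type and less RNA per cell cannot be told apart.

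*Saa1* to *Saa4* lie in a cluster on chromosome 7 (GRCm38, between 46711998 and 46754313), where *Saa2* is on the plus strand and the others are on the minus strand. *Orm1* (63344560 to 63348163) and *Orm2* (63362449 to 63365878) are neighbours on the plus strand of chromosome 4. *Lcn2* is on chromosome 2 (32384633 to 32388252), *Hp* on chromosome 8 (109575128 to 109579172), *Fgb* on chromosome 3 (83040141 to 83049863) and *Apcs* on chromosome 1 (172893961 to 172895041), all on the minus strand. All are protein-coding. Of the 31-base words in the coding transcripts of *Saa1*, 26.8% also occur in *Saa2*, and *Orm1* and *Orm2* share 27.5%, so reads between members of these pairs could be divided only in part by sequence. *Lcn2*, *Fgb* and *Apcs* share no such word with another gene.

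The 250 bases before the RefSeq start site (GRCm38.p6) were available for 8 of the 10 genes, without *Orm1* and *Hp*. *Saa1*, *Saa2* and *Saa3* are shown because they differed in how far above the other libraries they were in 1 library, *Orm2* because it was higher on HFD and *Fgb* because it was lower on HFD. Capitals mark matches, on either strand, to TTCNNNGAA (the shape of a STAT site) or TTNNGNAAT (C/EBP). The windows are chr7:46742981-46743230 (*Saa1*, minus strand), chr7:46751583-46751832 (*Saa2*, plus), chr7:46715677-46715926 (*Saa3*, minus), chr4:63362199-63362448 (*Orm2*, plus) and chr3:83049864-83050113 (*Fgb*, minus).
*Saa1*: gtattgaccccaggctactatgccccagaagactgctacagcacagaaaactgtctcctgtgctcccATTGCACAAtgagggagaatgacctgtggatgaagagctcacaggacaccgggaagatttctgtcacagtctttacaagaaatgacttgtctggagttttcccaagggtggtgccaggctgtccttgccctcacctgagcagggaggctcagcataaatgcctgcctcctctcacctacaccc
*Saa2*: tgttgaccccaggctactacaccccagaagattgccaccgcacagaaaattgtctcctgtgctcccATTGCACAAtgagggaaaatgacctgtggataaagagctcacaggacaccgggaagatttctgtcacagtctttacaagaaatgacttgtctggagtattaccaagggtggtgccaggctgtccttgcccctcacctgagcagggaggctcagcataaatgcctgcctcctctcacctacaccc
*Saa3*: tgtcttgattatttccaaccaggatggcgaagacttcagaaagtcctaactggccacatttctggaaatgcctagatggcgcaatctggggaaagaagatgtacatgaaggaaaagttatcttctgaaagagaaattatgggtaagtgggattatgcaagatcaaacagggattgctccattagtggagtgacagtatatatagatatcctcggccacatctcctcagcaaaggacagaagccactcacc
*Orm2*: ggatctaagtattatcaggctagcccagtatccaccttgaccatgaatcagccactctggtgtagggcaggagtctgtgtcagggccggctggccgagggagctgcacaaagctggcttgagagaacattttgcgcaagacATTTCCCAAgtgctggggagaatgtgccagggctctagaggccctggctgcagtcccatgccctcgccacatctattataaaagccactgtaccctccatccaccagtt
*Fgb*: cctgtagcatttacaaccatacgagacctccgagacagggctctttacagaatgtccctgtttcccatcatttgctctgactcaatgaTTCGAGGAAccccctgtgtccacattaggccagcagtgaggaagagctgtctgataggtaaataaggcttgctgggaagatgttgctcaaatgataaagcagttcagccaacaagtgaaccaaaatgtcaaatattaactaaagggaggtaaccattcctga
*Saa1* and *Saa2* were 94.8% identical over the aligned window, and each held the same C/EBP-like match, starting 183 and 184 bases before the start site. *Saa1* and *Saa3* were 52.2% identical, and *Saa3* held neither pattern as written. Looser forms of either pattern were not searched, so a site of a near form could be present without capitals. *Fgb* and *Apcs* were the only genes of the 8 with a STAT-like match, and the C/EBP-like match was in *Saa1*, *Saa2* and *Orm2*. The STAT-like pattern was in 7.01% and the C/EBP-like pattern in 10.2% of all 32817 windows of this length. A match describes letters only.

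At rest the genes covered a wide range. Per kilobase of transcript, the Chow mean was 1437 ± 276 CPM for *Hp* (SD, n = 4), 968 ± 210 CPM for *Fgb* and 488 ± 100 CPM for *Orm1*. The ranges of *Hp* and *Fgb* overlapped, and *Orm1* lay below both and above all other members. *Saa4*, at 129 ± 52.2 CPM per kilobase, and *Saa1*, at 120 ± 104 CPM per kilobase, could not be ordered within their spread, and *Saa2* (41.1 ± 33.0 CPM per kilobase) and *Apcs* (37.9 ± 8.42 CPM per kilobase) overlapped as well. *Saa1*, from 18.82 to 242.5 CPM per kilobase, overlapped with these genes too. *Orm2*, *Saa3* and *Lcn2* had the lowest means, at 6.86 ± 1.85, 3.23 ± 2.49 and 2.69 ± 2.05 CPM per kilobase. They overlapped with each other and with *Saa2*, whose lowest Chow library was at 4.796 CPM per kilobase. In Chow/FGFR4 KD 4 the order was different, with *Saa1* at 4396 and *Saa2* at 3648 CPM per kilobase beside *Hp* at 4816.

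In Chow/FGFR4 KD 4 all 10 genes were at their highest of the 16 libraries. Over all 11324 tested genes, 14.3% were highest in this library. The members summed to 21294 CPM there, 2.13% of scaled counts, against 4905 to 8207 CPM in the other 15 libraries. Against the mean of Chow/FGFR4 KD 1 to 3, *Saa3* was 80.5-fold, *Lcn2* 75.3-fold, *Saa2* 48.9-fold, *Orm2* 23.4-fold and *Saa1* 20.6-fold higher. *Apcs* was 6.20-fold, *Orm1* 3.63-fold, *Hp* 3.49-fold, *Saa4* 2.78-fold and *Fgb* 1.65-fold higher. No test was made of a single library. Its *Fgfr4* level, 2.76 CPM, was the lowest of its group.

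**Figure D1:**
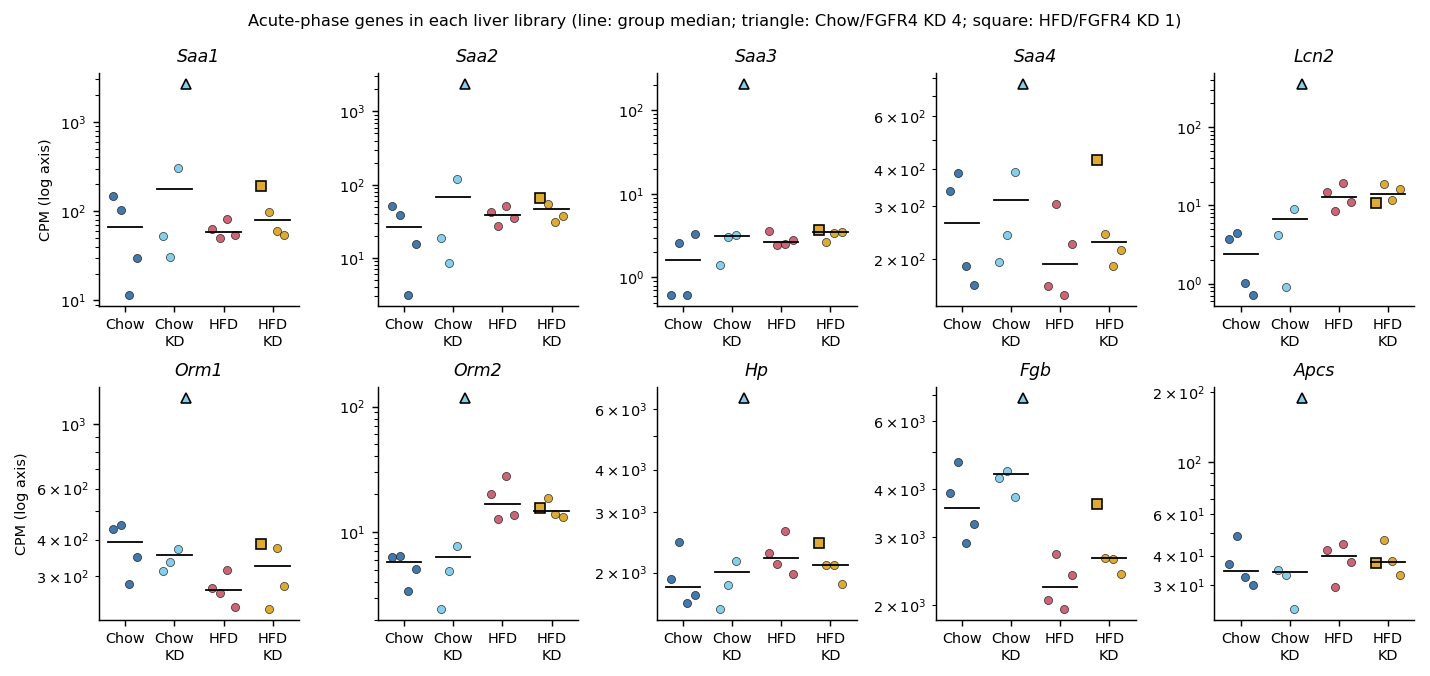
CPM (log axis) of each acute-phase gene in the 16 liver libraries, by group, with a line at each group median, a triangle for Chow/FGFR4 KD 4 and a square for HFD/FGFR4 KD 1. The triangle is the highest point in all 10 panels, and the HFD points lie above the chow points, apart from the triangle, for *Orm2*.

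Other genes of the response moved with the members in this library. Of 20 tested genes on a list of other positive acute-phase genes, 19 were at their highest of 16, and the median ratio to Chow/FGFR4 KD 1 to 3 was 2.59 (0.992 over all tested genes). The metallothionein *Mt2* was at 545 CPM against 68.6 ± 27.7 CPM (SD, n = 3), and hemopexin (*Hpx*), which binds heme, at 7239 against 2220 ± 179 CPM. Only hepcidin (*Hamp*), the iron hormone, was inside the range of the other libraries. Of 8 negative acute-phase genes, *Alb*, *Ttr*, *Rbp4* and *Apoa1* were at their lowest of 16, with ratios from 0.735 for *Apoa1* to 0.844 for *Rbp4*, whereas transferrin (*Trf*) was at its highest. Of all tested genes 12.7% were at their lowest in this library.

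Of 18 STAT3, NF-kB and C/EBP factors and feedback genes, 13 were at their highest in this library. *Tnfaip3*, a brake on NF-kB, was 18.6-fold, *Nfkb2* 6.01-fold, *Bcl3* 3.67-fold and *Cebpb* 3.07-fold over the other 3 libraries of the group. *Socs3*, the feedback inhibitor of STAT3, was at 40.0 CPM and was not the highest, with 41.5 CPM in Chow/FGFR4 KD 3. Among genes outside the members, the largest ratios to the highest of the other 15 libraries were those of the toll-like receptor *Tlr2* (11.5), *Tnfaip3* (6.57), *Tifa* (6.45), *Syt12* (6.45), *Hcar2* (6.07), *Alpk1* (6.04), *Icam1* (5.77), *Mt2* (5.50), Gm12915 (5.05) and *Zc3h12a* (4.66). *Tlr2*, *Tifa* and *Alpk1* are sensors or adaptors of innate immunity that signal to NF-kB.

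Markers of blood and immune cells were examined beside this library. The summed level of 11 neutrophil markers was 6.74 CPM, against 1.38 to 4.54 CPM in the other 3 libraries of the group and 0.812 to 4.67 CPM in the other groups, none of the 11 passed the filter, and 7 of them were at 3 counts or fewer in every library of this group. The 10 macrophage markers summed to 110.3 CPM, above the other 3 libraries (83.2 to 92.6 CPM) and below the HFD group (124 to 215 CPM), and none of the 9 tested was at its highest there. Lymphocyte markers summed to at most 3.04 CPM in any library, and those of adipocytes were at 0 in Chow/FGFR4 KD 4. The part of other cells in its acute-phase level was not tested. The cytokine *Osm* was at 0 in all 16 libraries, and *Il6* was at 0 in all but HFD 4 and HFD/FGFR4 KD 3, with 0.202 and 0.166 CPM. Of the 8 cytokine genes listed, 2 passed the filter, and 1 of these, *Csf1*, the macrophage growth factor, was at its highest of 16 in Chow/FGFR4 KD 4, at 10.5 CPM against 6.17 ± 0.523 CPM (SD, n = 3).

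**Figure D2:**
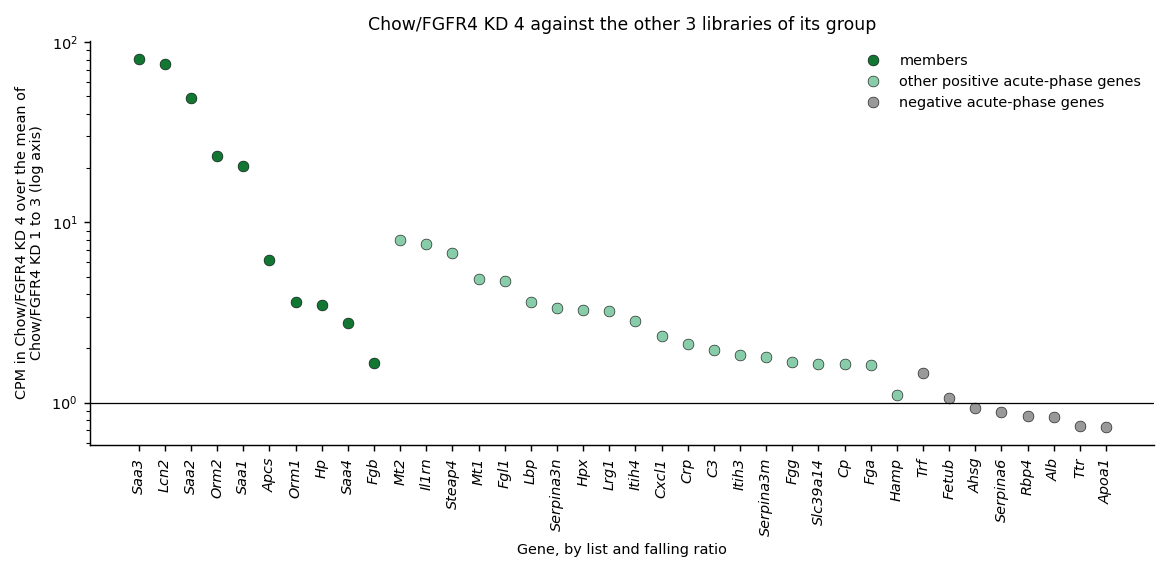
CPM in Chow/FGFR4 KD 4 divided by the mean of the other 3 libraries of its group (log axis), 1 point per gene, for the 10 members, 20 other positive and 8 negative acute-phase genes. Members run from 1.65 (*Fgb*) to 80.5 (*Saa3*), and 6 of the 8 negative genes lie below 1.

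The first comparison asked whether FGFR4 KD changed the acute-phase genes in chow-fed mice. A gene passed when limma-voom gave a p under 0.05 that stayed under 0.25 after Benjamini-Hochberg adjustment over all tested genes. No member passed with or without Chow/FGFR4 KD 4, and none had an unadjusted p under 0.05. Of all tested genes 0.00883% passed in either fit. The 2 groups overlapped for every member, and 2.52% of all genes were without overlap (4.71% without Chow/FGFR4 KD 4). *Saa1* was at 148, 103, 11.5 and 30.3 CPM in Chow 1 to 4 and at 53.2, 30.6, 306 and 2677 CPM in Chow/FGFR4 KD 1 to 4. The 2 highest and the 2 lowest saline libraries were far apart, and the groups overlapped. The log2 change was 2.0 (SE 1.09, adjusted p 0.976), and 0.68 (SE 0.790, adjusted p 0.999) without Chow/FGFR4 KD 4.

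*Saa2*, the second inducible serum amyloid, was at 50.6, 38.2, 3.13 and 15.4 CPM in Chow and at 18.6, 8.69, 118 and 2378 CPM in Chow/FGFR4 KD. It followed *Saa1* from library to library, low in Chow 3 and high in Chow/FGFR4 KD 3 and 4. Spearman's rho between the pair was 0.953 over the 16 libraries and 0.943 without Chow/FGFR4 KD 4, a description of 2 genes that share sequence. *Saa3*, the serum amyloid also made by macrophages and fat, was at 0.615, 2.61, 0.621 and 3.31 CPM in Chow and 1.40, 3.01, 3.26 and 206 CPM in Chow/FGFR4 KD. Its lowest libraries held 3 counts, against 747 in Chow/FGFR4 KD 4.

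With all libraries, all 10 log2 changes with KD on chow were above 0, with a median of 0.64 (0.00 over all genes). Without Chow/FGFR4 KD 4, 6 of 10 were above 0, with a median of 0.13, and *Orm1*, *Orm2*, *Hp* and *Apcs* were at -0.13, -0.26, -0.05 and -0.23. With Chow 3 left out as well, *Saa1* was at -0.034 and *Saa2* at -0.36, and again no member passed. The 95% intervals without that library were narrow for *Hp* (-0.36 to 0.26) and *Orm1* (-0.52 to 0.25) and wide for *Saa2* (-1.24 to 2.28). No gene of the other positive, negative, receptor or factor lists passed in this comparison either way.

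On HFD, KD was the main contrast of the study, and again no member passed, with none at an unadjusted p under 0.05 and 3.14% of all genes passing (3.96% without Chow/FGFR4 KD 4, which also gave 0 members). All 10 members overlapped between the groups, and 6.49% of all genes did not. *Saa1* was at 63.7, 49.9, 81.5 and 53.5 CPM in HFD and at 189.8, 99.0, 60.5 and 53.6 CPM in HFD/FGFR4 KD. *Saa4*, the constitutive serum amyloid, was at 163, 305, 152 and 225 CPM in HFD and at 429, 242, 189.6 and 215 CPM in HFD/FGFR4 KD. For both, HFD/FGFR4 KD 1 was the highest of its group and the other libraries overlapped with HFD. The changes were 0.53 (SE 1.06, adjusted p 0.895) for *Saa1* and 0.33 (SE 0.385, adjusted p 0.811) for *Saa4*.

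The 95% intervals for KD on HFD, without Chow/FGFR4 KD 4, were -0.61 to 0.78 for *Lcn2*, -0.74 to 0.29 for *Orm2*, -0.37 to 0.21 for *Hp* and -0.02 to 0.63 for *Fgb*. Among the other lists, complement *C3* rose by 0.62 (SE 0.192, adjusted p 0.212), and *Cebpb*, a C/EBP factor that acts at acute-phase promoters, rose by 1.32 (SE 0.359, adjusted p 0.160). *Cebpb* was at 25.7, 36.6, 30.8 and 32.9 CPM in HFD and at 84.1, 79.0, 62.9 and 89.6 CPM in HFD/FGFR4 KD, with no overlap. Of 8 negative acute-phase genes 2 fell, transthyretin (*Ttr*) by 0.51 (adjusted p 0.0790) and corticosteroid-binding globulin (*Serpina6*) by 0.62 (adjusted p 0.116). The difference between the KD effects on the diets passed for no member, with 0.0353% of all genes passing, and for none without Chow/FGFR4 KD 4 (0.0530%).

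Diet was compared in saline mice, a comparison that does not hold Chow/FGFR4 KD 4 but shares its estimate of the spread. With all libraries 2 members passed, *Orm2* higher and *Fgb* lower, where 26% of all genes passed. Without that library 5 passed, *Lcn2*, *Orm2* and *Saa3* higher and *Fgb* and *Orm1* lower, where 27% of all genes passed. In 3 members the 4 HFD libraries did not overlap with the 4 Chow libraries, as in 16.1% of all genes. With HFD/FGFR4 KD 1 left out as well, 5 passed, where 27.6% of all genes passed. With Chow 3 left out in its place, 4 passed, all but *Saa3*, where 27.8% of all genes passed. The changes with and without Chow/FGFR4 KD 4 were close, and their errors differed.

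*Orm2*, an acid glycoprotein that binds lipids and drugs, was at 6.31, 6.47, 3.36 and 5.12 CPM in Chow and at 20.1, 12.6, 27.7 and 13.6 CPM in HFD. The lowest HFD library was above the highest Chow library. The log2 change was 1.79 (SE 0.811, adjusted p 0.174), and the SE was 0.338 (adjusted p 0.00462) without Chow/FGFR4 KD 4. In all 16 libraries *Orm2* did not pass with edgeR (adjusted p 0.212) or the replicate block (adjusted p 0.221), DESeq2 gave it no adjusted p, and it passed in 8 of the 16 limma-voom fits that left out 1 library. Without both Chow 3 and Chow/FGFR4 KD 4 its change was 1.57 (adjusted p 0.0141). *Lcn2*, which binds bacterial iron carriers, was at 3.69, 4.43, 1.01 and 0.710 CPM in Chow and at 14.7, 8.50, 19.5 and 10.9 CPM in HFD. These groups did not overlap, and its log2 change of 2.72 passed without Chow/FGFR4 KD 4 (SE 0.618, adjusted p 0.0115). It did not pass in the main fit of all 16 libraries (SE 1.70, adjusted p 0.329). With library quality weights in limma-voom, all 16 libraries gave *Lcn2* a change of 2.89 (adjusted p 0.1265), which passed.

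*Fgb*, the beta chain of the clotting protein, was at 3902, 4710.0, 2899 and 3241 CPM in Chow and at 2070.0, 2722, 1956 and 2403 CPM in HFD. All HFD libraries were below all Chow libraries, and *Fgb* fell by 0.68 on the log2 scale (SE 0.187, adjusted p 0.0314). The other chains of fibrinogen behaved alike, with *Fga* falling by 0.66 (SE 0.191, adjusted p 0.0393) and *Fgg* by 0.69 (SE 0.195, adjusted p 0.0343). *Fgb* passed in each of the 16 fits that left out 1 library, and with edgeR and DESeq2. Its change was smaller in limma-voom on library totals only, at -0.397 (adjusted p 0.0614), which passed. The factors that correct for composition were 0.836 to 1.034 in Chow and 1.053 to 1.167 in HFD, without overlap. On library totals only, *Orm2* was higher with HFD by 2.03 (adjusted p 0.0694). The ratio of *Fgb* to *Fga* was between 0.821 and 0.937 in all 16 libraries.

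*Orm1*, the abundant orosomucoid, was at 434, 447, 281 and 349 CPM in Chow and 272, 262, 315 and 234 CPM in HFD. Its groups overlapped through Chow 3, and it fell by 0.47 without Chow/FGFR4 KD 4 (SE 0.168, adjusted p 0.0869) but did not pass in all 16 libraries (adjusted p 0.387). On library totals only, limma-voom on all 16 libraries gave *Orm1* a change of -0.187 (adjusted p 0.641). *Saa3* was at 3.62, 2.45, 2.49 and 2.83 CPM in HFD, overlapping with Chow, and rose by 1.05 without Chow/FGFR4 KD 4 (SE 0.433, adjusted p 0.135; 0.725 in all libraries). This call of *Saa3* was lost with Chow 3 left out as well (0.69, adjusted p 0.339), with edgeR (0.73, adjusted p 0.280) and with DESeq2 (0.72, adjusted p 0.336). *Saa1*, *Saa2*, *Saa4*, *Hp* and *Apcs* passed in neither fit, with changes from -0.32 for *Saa4* to 1.18 for *Saa2*. *Hp*, which binds free hemoglobin, was at 1919, 2460.0, 1629 and 1723 CPM in Chow and 2278, 2124, 2654 and 1976 CPM in HFD. *Apcs*, a pentraxin, was at 36.7, 48.3, 32.2 and 29.8 CPM in Chow and at 42.1, 29.3, 44.8 and 37.6 CPM in HFD. Both overlapped between the diets.

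Of 20 other positive acute-phase genes 2 rose and 3 fell with HFD in saline mice, a share close to the 26% of all genes. *Serpina3m*, a protease inhibitor, rose by 0.77 (adjusted p 0.0317) and *Il1rn*, the interleukin 1 receptor antagonist, by 2.51 (adjusted p 0.0553), and *C3* fell beside the fibrinogen chains by 0.44 (adjusted p 0.152). Of 8 negative acute-phase genes, *Serpina6* rose by 1.43 (adjusted p 0.000143), and 3 fell, *Fetub* by 0.62 (adjusted p 0.00538), *Ahsg* by 0.35 (adjusted p 0.0432) and *Apoa1* by 0.25 (adjusted p 0.175). Of 9 receptor genes, *Lifr* fell by 1.50 (adjusted p 0.0643), *Il1rap* fell by 0.41 (adjusted p 0.0684) and *Tnfrsf1a* rose by 0.34 (adjusted p 0.174). Of 18 factors and feedback genes, *Pim1* fell by 0.67 (adjusted p 0.109) and *Cebpa* rose by 0.25 (adjusted p 0.173), a smaller share than that of all genes. Macrophage markers were also higher, with 8 of 9 tested genes rising, *Cd68* by 1.93 (adjusted p 0.00488), and a summed level of 124 to 215 CPM in HFD against 66.0 to 74.3 CPM in Chow. The 5 adipocyte markers summed to 10.9 to 24.6 CPM in HFD and 0.793 to 11.4 CPM in Chow, and the 1 that could be tested, *Cfd*, rose by 2.82 (adjusted p 0.0214). Of 8 hepatocyte markers 4 fell, *Cyp3a11* by 2.95 (adjusted p 0.000654), *Tat* by 1.43 (adjusted p 0.00885), *Cps1* by 0.88 (adjusted p 0.0148) and *Hnf4a* by 0.44 (adjusted p 0.108). *Lcn2* and *Saa3* can also come from macrophages and *Saa3* from fat, and the part of these cells in the change of the members was not tested.

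**Figure D3:**
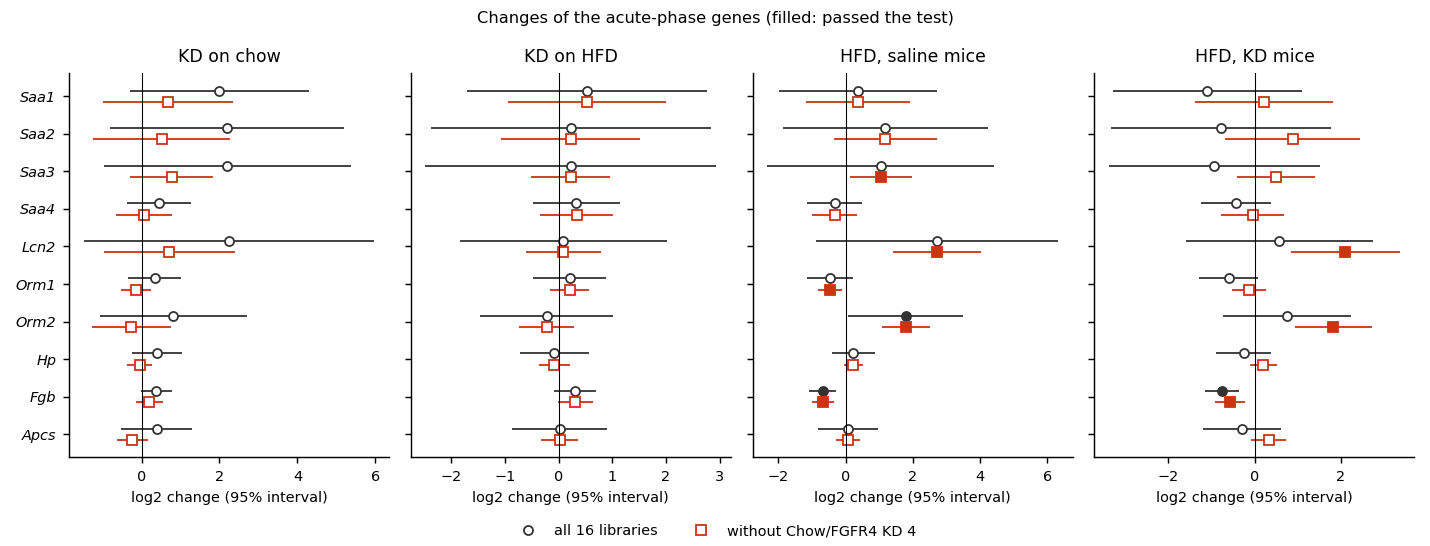
Log2 change with 95% interval of each member in 4 comparisons, from all 16 libraries (black circles) and without Chow/FGFR4 KD 4 (red squares), with filled symbols for genes that passed the test. Intervals for the inducible genes are wide with all 16 libraries, and among the fits shown *Lcn2* passes in the diet comparisons only without that library.

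In KD mice the diet comparison changed with Chow/FGFR4 KD 4. With it 1 member passed, *Fgb*, lower with HFD by 0.75 (SE 0.187, adjusted p 0.0393), where 20.2% of all genes passed, and the median log2 change of the members was -0.52. Without it 3 passed, where 13.2% of all genes passed, and the median was 0.27. The groups did not overlap for 1 member with it (11.5% of all genes) and for 3 without it (16.1%). With HFD/FGFR4 KD 1 left out as well, 3 passed, where 19% of all genes passed, and with Chow 3 in its place 3 passed, where 13.6% did. *Lcn2* rose by 2.10 (SE 0.593, adjusted p 0.0883) from 4.16, 0.914 and 9.08 CPM in Chow/FGFR4 KD 1 to 3 to 10.6, 18.6, 11.8 and 16.3 CPM in HFD/FGFR4 KD. *Orm2* rose by 1.82 (SE 0.416, adjusted p 0.0412) from 2.43, 4.92 and 7.73 CPM to 15.6, 18.6, 14.0 and 13.2 CPM. Neither gene overlapped between these groups once that library was out. With all libraries edgeR put *Lcn2* lower with HFD, at -2.68 (adjusted p 0.163), where limma-voom gave 0.57 (adjusted p 0.803). Macrophage markers summed to 100.4 to 180.4 CPM in HFD/FGFR4 KD and 83.2 to 110.3 CPM in Chow/FGFR4 KD, and adipocyte markers to 3.82 to 8.63 against 0 to 3.37 CPM. Their part in these changes was not tested.

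*Fgb* was at 4276, 4453, 3806 and 6893 CPM in Chow/FGFR4 KD and 3665, 2659, 2636 and 2409 CPM in HFD/FGFR4 KD, and fell by 0.57 (SE 0.167, adjusted p 0.0945) without Chow/FGFR4 KD 4. On library totals only, limma-voom on all libraries gave *Fgb* a change of -0.5945 (adjusted p 0.0405). HFD/FGFR4 KD 1 was the highest of its group for *Fgb* and *Saa4*, the lowest for *Lcn2*, and inside the range of the other 3 for *Orm2*. Of 20 other positive acute-phase genes, 8 fell and none rose with all libraries, and 5 fell and 2 rose without Chow/FGFR4 KD 4. *Fga* fell by 0.81 (adjusted p 0.0313), *Fgg* fell by 0.80 (adjusted p 0.0367), *Mt1* fell by 3.60 (adjusted p 0.0613) and *Mt2* fell by 4.35 (adjusted p 0.0917) with all libraries. Of 18 factors and feedback genes 5 fell and 1 rose with all libraries, and 1 fell and 2 rose without Chow/FGFR4 KD 4. Of 8 negative acute-phase genes 2 rose and 1 fell in either fit. Only *Serpina6* was the same in both, rising by 1.01 (adjusted p 0.00488) with all libraries. With all libraries *Rbp4* also rose and *Fetub* fell, and without Chow/FGFR4 KD 4 *Trf* also rose and *Ttr* fell. Beside these counts, 20.2% of all genes passed with all libraries and 13.2% without Chow/FGFR4 KD 4.

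Among the members not yet given in KD mice, *Saa2* was at 43.2, 27.6, 52.1 and 35.1 CPM in HFD and 66.0, 55.1, 31.3 and 37.1 CPM in HFD/FGFR4 KD, and *Saa3* was at 3.73, 2.66, 3.40 and 3.51 CPM in HFD/FGFR4 KD. *Saa4* was at 338, 387, 189.7 and 165 CPM in Chow and 196, 241, 392 and 767 CPM in Chow/FGFR4 KD. These genes overlapped between the groups. *Orm1* was at 312, 334, 372 and 1233 CPM in Chow/FGFR4 KD and 385, 230.4, 375 and 276 CPM in HFD/FGFR4 KD. *Hp* was at 1566, 1840.0, 2169 and 6478 CPM in Chow/FGFR4 KD and 2448, 2111, 2110.0 and 1849 CPM in HFD/FGFR4 KD. *Apcs* was at 34.7, 33.1, 23.6 and 189 CPM in Chow/FGFR4 KD and 37.3, 46.5, 38.0 and 32.9 CPM in HFD/FGFR4 KD. Chow/FGFR4 KD 4 was the highest library for each of these genes, and the other KD libraries overlapped between the diets.

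Ratios within 2 pairs are given as a description, since they were chosen after the values were seen. Of 8 exact permutation tests on them, the lowest Benjamini-Hochberg adjusted p was 0.1143. With 4 libraries against 4 the unadjusted p of this test cannot be under 0.02857. *Orm2* over *Orm1* was 0.0146, 0.0145, 0.0120 and 0.0147 in Chow and 0.0738, 0.0481, 0.0881 and 0.0581 in HFD, 4.71-fold higher on average. In KD mice it was 0.00777, 0.0147, 0.0208 and 0.0953 in Chow/FGFR4 KD and 0.0406, 0.0806, 0.0374 and 0.0478 in HFD/FGFR4 KD. The diets did not overlap in saline mice, and in KD mice they overlapped through Chow/FGFR4 KD 4 alone. *Saa2* over *Saa1* was 0.343, 0.371, 0.273 and 0.509 in Chow and 0.677, 0.554, 0.639 and 0.657 in HFD, 1.73-fold higher and without overlap. In KD mice it was 0.3498, 0.284, 0.387 and 0.888 in Chow/FGFR4 KD and 0.348, 0.556, 0.517 and 0.693 in HFD/FGFR4 KD, which overlapped with and without Chow/FGFR4 KD 4. Chow/FGFR4 KD 4 had the highest ratio of all 16 libraries for both, 0.0953 and 0.888, on a chow diet. HFD/FGFR4 KD 1 was at 0.348 for *Saa2* over *Saa1*, among the chow values, while its group was otherwise at 0.517 to 0.693.

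**Figure D4:**
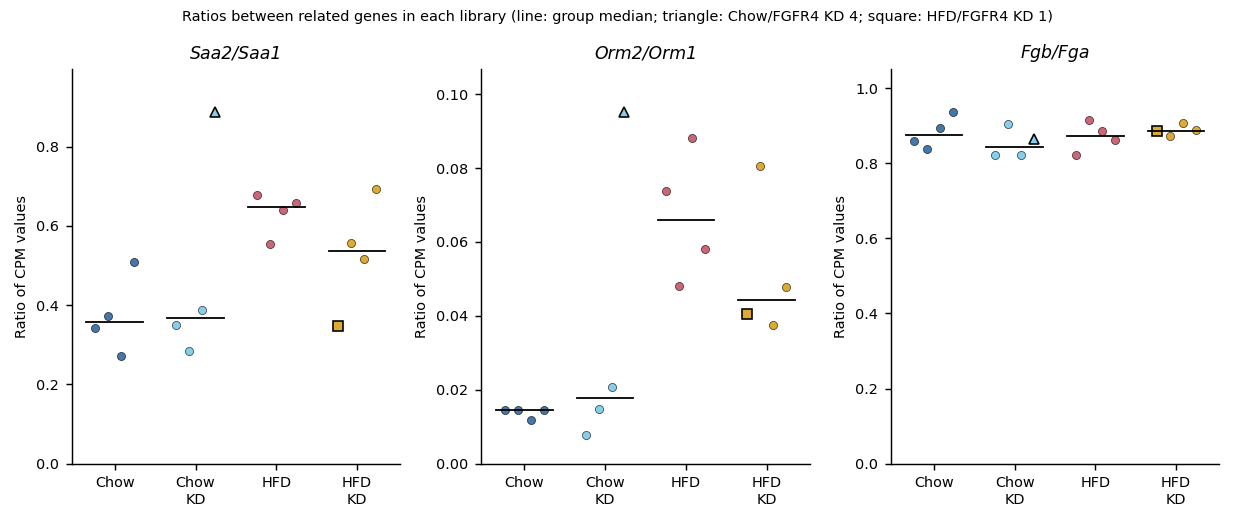
Ratios of CPM values between related genes in each library, by group, with a line at the group median, a triangle for Chow/FGFR4 KD 4 and a square for HFD/FGFR4 KD 1. HFD lies above Chow in saline mice for *Saa2*/*Saa1* and *Orm2*/*Orm1*, the KD groups overlap, and *Fgb*/*Fga* stays between 0.821 and 0.937.

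Correlations between members across libraries varied from pair to pair, and no grouping was tested. Over the 15 libraries without Chow/FGFR4 KD 4, Spearman's rho was 0.893 between *Lcn2* and *Orm2* and -0.746 between *Lcn2* and *Fgb*, values that hold the diet difference. These are extreme pairs, and others were weak, such as *Saa1* and *Fgb* (0.0786) and *Orm1* and *Apcs* (0.0393). Outside the lists, the genes most like the mean standardised level of the 10 members over 16 libraries were *Ltv1* (rho 0.841), *Ssr3* (0.824), *Wnk1* (0.821), *Bhlhe40* (0.815) and *Nup98* (0.815), and these were 0.775 to 0.807 over the 15 libraries.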

How the data were processed

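The authors pseudoaligned reads (fastp and kallisto in the submitters' processing notes, versions not given in the sources used here) and summed transcripts to genes with tximport. They deposited expected counts, estimated counts that need not be whole, for 16 libraries. The labels name a KAPA mRNA kit, whereas the methods of the study name HTG EdgeSeq, a targeted assay, and which one made these counts was not settled. Symbols and positions came from GENCODE (GRCm38). As in the methods of the study, genes under 1 CPM in more than 4 libraries were left out, counts were TMM-scaled and limma-voom (limma 3.58.1, edgeR 4.0.16, R 4.3.3) was fitted with a mean per group. The threshold was p under 0.05 and, after Benjamini-Hochberg adjustment over 11324 genes, under 0.25. On simulated counts (KD on HFD, 2-fold changes, 11210 genes) 83.4% of 199 changed genes were recovered and 22.4% of calls were false. No libraries within a group were duplicates. Counts were rounded for DESeq2 1.42.0. Promoters were RefSeq sequences (GRCm38.p6). An NF-kB-like pattern was also searched, and its matches are not reported here. Members and lists were chosen with earlier results of these data known. Named genes are the members, *Fga*, *Fgg*, *Fgfr4*, up to 4 genes per list and comparison that passed, the 10 genes highest in Chow/FGFR4 KD 4 over the others and the 5 most like the members. *Hpx*, *Nfkb2*, *Alb*, *Osm*, *Il6*, *Csf1*, *Krt19*, other list genes given for Chow/FGFR4 KD 4 and the intestinal genes of Chow 3 were named after their values were seen.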

Additional observations from a re-analysis of the deposited data

Results flagged for a closer look

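In all, 10 values stood apart from the other 3 libraries of their group by a gap that passed Dixon's 95% limit for 4 samples, among 48 groups of values examined. Of these, 9 belonged to Chow/FGFR4 KD 4: *Saa1* at 2677 CPM, *Saa2* at 2378 CPM, *Saa3* at 205.9 CPM, *Lcn2* at 355.6 CPM, *Orm1* at 1233 CPM, *Orm2* at 117.5 CPM, *Hp* at 6478 CPM, *Apcs* at 189.1 CPM, and the ratio of *Orm2* to *Orm1* at 0.0953. The other was the same ratio in Chow 3, at 0.0120 against 0.0145 in the nearest library of Chow. Chance passes this limit in about 1 in 20 groups. The genes were chosen with the response of Chow/FGFR4 KD 4 known, and values of 1 library are not independent, so these are a description.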

How the results depend on the processing

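Alternatives were run for the number of members that passed in each of 5 comparisons and for each member's change. In HFD against Chow in saline mice the number was 2. It was 1 with edgeR's quasi-likelihood test, with DESeq2, which gave *Orm2* no adjusted p, with the replicate block and at an adjusted p under 0.05 (*Fgb* in each), 4 with only the groups compared, 4 without both Chow 3 and Chow/FGFR4 KD 4, 5 without both Chow/FGFR4 KD 4 and HFD/FGFR4 KD 1, 4 with edgeR and 4 with DESeq2 without Chow/FGFR4 KD 4, and 1 to 5 when single libraries were left out. With library quality weights on all 16 libraries, *Lcn2* (adjusted p 0.1265) passed in saline mice beside *Fgb* and *Orm2*. In HFD against chow in KD mice the number was 1. It was 6 with edgeR, 4 with DESeq2, 2 with library quality weights, 3 without both Chow/FGFR4 KD 4 and HFD/FGFR4 KD 1, 3 without both Chow 3 and Chow/FGFR4 KD 4, 3 with edgeR and 3 with DESeq2 without Chow/FGFR4 KD 4, and 1 to 3 without single libraries. The replicate block gave 1 there. The 6 with edgeR included *Lcn2* at -2.68 (adjusted p 0.163) and *Fgb* at -0.773 (adjusted p 0.0418), both lower with HFD. Without Chow/FGFR4 KD 4, edgeR put *Lcn2* higher with HFD, at 1.67 (adjusted p 0.102). Same-numbered libraries correlated between -0.291 and 0.239, so the numbers did not pair them. In the other 3 comparisons the number was 0 under every alternative run. The fits without 2 libraries and those of edgeR and DESeq2 without Chow/FGFR4 KD 4 were chosen after seeing the data.

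Of 800 single-gene values with 1 library left out, 30 changed direction, and of 490 values under other settings, 44 did. The cause was not tested. For KD on chow, without Chow/FGFR4 KD 4 and HFD/FGFR4 KD 1 (both libraries, from here), *Orm1* was at -0.13, *Orm2* at -0.26, *Hp* at -0.051 and *Apcs* at -0.23 (log2), and leaving out single libraries gave -0.13 to 0.52, -0.26 to 1.62, -0.051 to 0.63 and -0.23 to 0.70. For KD on HFD, *Apcs* was at -0.059 with library totals and -0.034 with quality weights, with -0.11 to 0.10 over left-out libraries, where *Lcn2* ranged from -0.11 to 0.30. For HFD in saline mice, *Saa1* was at -0.23 with edgeR and -0.23 with DESeq2, with -0.34 to 0.95 over left-out libraries, and *Apcs* ranged from -0.0080 to 0.21. For HFD in KD mice, *Lcn2* was at -2.68 with edgeR, -2.69 with DESeq2 and -0.48 with the replicate block, *Orm2* at -1.08 with edgeR and -1.11 with DESeq2, and *Apcs* at 0.0094 with quality weights. Without both libraries *Saa2* was at 0.70, *Saa3* at 0.44, *Hp* at 0.13 and *Apcs* at 0.34. Leaving out single libraries gave -2.01 to 0.22 for *Saa1*, -1.93 to 0.88 for *Saa2*, -1.88 to 0.50 for *Saa3*, -0.64 to 2.10 for *Lcn2*, -0.072 to 1.82 for *Orm2*, -0.49 to 0.20 for *Hp* and -0.60 to 0.33 for *Apcs*. For the difference between KD effects, *Orm1* was at 0.014 with quality weights, and without both libraries *Saa4* was at 0.020, *Orm1* at 0.23, *Orm2* at 0.023 and *Apcs* at 0.26. Single libraries gave -0.39 to 0.27 for *Saa4*, -0.32 to 0.34 for *Orm1*, -1.85 to 0.035 for *Orm2*, -0.21 to 0.11 for *Fgb* and -0.68 to 0.25 for *Apcs*. Without both Chow 3 and Chow/FGFR4 KD 4, KD on chow gave -0.034 for *Saa1*, -0.36 for *Saa2*, -0.077 for *Saa4*, -0.27 for *Orm1*, -0.48 for *Orm2*, -0.13 for *Hp* and -0.29 for *Apcs*, HFD in saline mice gave -0.34 for *Saa1*, HFD in KD mice gave 0.22 for *Saa1*, 0.88 for *Saa2*, 0.50 for *Saa3*, 0.20 for *Hp* and 0.33 for *Apcs*, and the difference between KD effects was 0.56 for *Saa1*, 0.58 for *Saa2*, 0.41 for *Saa4*, 0.47 for *Orm1*, 0.26 for *Orm2*, 0.044 for *Hp*, 0.21 for *Fgb* and 0.30 for *Apcs*.

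Low counts limit *Saa3* and *Lcn2*, both at 3 counts in their lowest library.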
